A study of Mus musculus with 6 samples.

Results

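In all, 10 macrophage genes were followed in RNA sequencing libraries of whole mouse pancreatic islets: Lyz2, Cd68, Adgre1, Csf1r, C1qa, C1qb, C1qc, Mrc1, Cd163 and Itgax. They were chosen by symbol as widely used macrophage genes, and all 10 were found among the 54556 genes of the deposited table. The study set 3 libraries of Mettl3 flox/flox mice beside 3 libraries of β-Mettl3-KO mice, which carry the same floxed alleles and RIP-Cre. All were C57BL/6 mice on normal chow at 8 weeks of age. Mettl3 is the methyltransferase that writes N6-methyladenosine on mRNA, and RIP-Cre, Cre recombinase under a rat insulin promoter, is aimed at β cells and not at macrophages. The control libraries carry no Cre and no library carries Cre alone, so Cre and deletion cannot be told apart. Whether an RNA sample came from 1 mouse or from pooled mice is not in the labels, so p-values measure only the spread between these libraries, which may be technical.

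Islets hold resident macrophages that sit beside endocrine cells and vessels, survive on signals through the CSF1 receptor and take up and degrade material in lysosomes. Such cells are a main tissue source of C1q, the recognition part of the classical complement pathway. The 10 genes cover several of these functions: growth factor receptor (Csf1r), C1q chains (C1qa, C1qb, C1qc), antibacterial and lysosomal proteins (Lyz2, Cd68), surface adhesion proteins (Adgre1, which encodes F4/80, and Itgax, which encodes CD11c) and scavenger receptors (Mrc1, which encodes CD206, and Cd163). Itgax is also a dendritic cell gene, and Lyz2 is also used by monocytes and neutrophils.

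Reads recovered from the table came to 16398862 to 18387313 per library. Mettl3 itself had a mean of 3.41 scaled FPKM in flox/flox islets and 4.14 in the others, a log2 difference of 0.25 that did not pass (limma adjusted p = 0.12). Reads summed over a whole gene cannot show loss of some exons, so the genotype is unchecked here and the second group is called the labelled knockout. Summed β cell markers, on which the tissue label rests, were the most abundant list in both groups, at 315647 to 394254 scaled CPM (reads relative to library size) in flox/flox islets and 138229 to 153546 in labelled knockout islets. Intestinal and lymphoid genes stood out in the labelled knockout group, with values given beside the results they touch.

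Of the 10 genes, 1 rose in labelled knockout islets, 3 fell, 4 were tested and did not pass, and 2 were too low to test. Lyz2 rose 2.42-fold, while C1qb, C1qc and Csf1r fell, under the scaling the deposited values carry. FPKM are fragments per kilobase of gene, and here they were scaled so that the typical gene does not change. The limma test was run on genes averaging 1 scaled FPKM or more, on log2(scaled FPKM + 0.5), with a Benjamini-Hochberg adjusted p under 0.05 over all genes as the threshold. Of 14497 genes tested, 16.9% were called higher and 17.2% lower. Among the 8 tested macrophage genes, 1 rise is a smaller share and 3 falls a larger one. With 8 genes such shares cannot be told apart from those of all genes. The median log2 difference of the 8 was -0.27, beside -0.0045 for all genes tested. All 8 had a mean of at least 1 in both groups, so none was tested only because of the group in which it was higher. In bulk RNA, fewer cells of a type and less RNA per cell cannot be told apart.

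**Figure D1:**
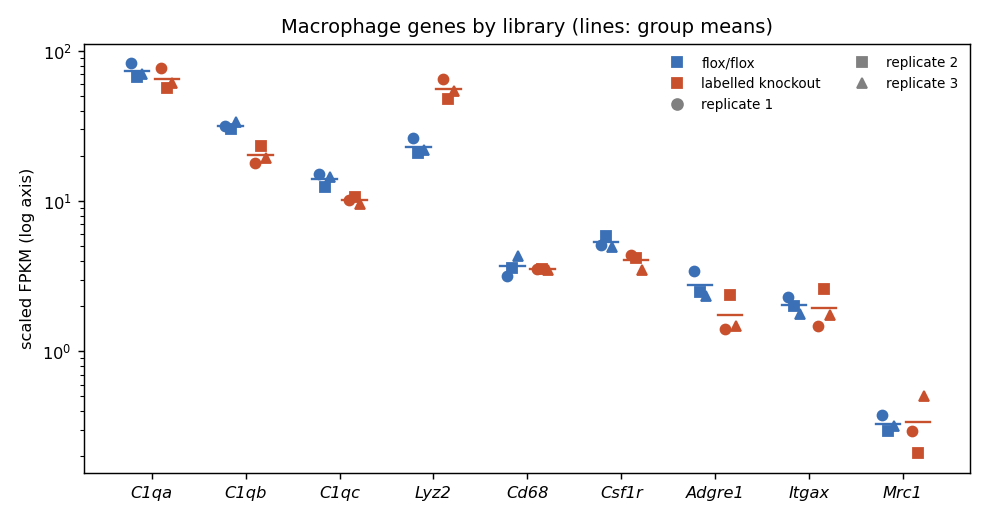
Scaled FPKM of 9 macrophage genes (log axis) in each of the 3 flox/flox libraries (blue) and 3 labelled knockout libraries (orange), with the replicate shown by symbol and the group mean by a line. Cd163 is left out because it was at 0 in 2 libraries. Lyz2 stood higher in all labelled knockout libraries, C1qb, C1qc and Csf1r stood lower in all of them under the deposited scaling (with own totals Csf1r was at a difference of 0.0054), and the other 5 genes overlapped between groups.

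Promoter sequences were shown for the genes on which the rise and the falls turn and for Lyz1, the neighbouring lysozyme gene. The RefSeq promoter table for GRCm38.p6 held 7 of the 10 genes, without C1qa, Adgre1 and Csf1r. The 250 bases before each start were searched on both strands for AGGAAGT, a core sequence of ETS family factors such as PU.1 (the product of Spi1), and 4 of the 7 held it: Lyz2, C1qb, C1qc and Mrc1. Of 27025 promoters searched the same way, 7.8% held it. Cd68, Cd163 and Itgax had no match in this window. The 200 bases before the start are given 5′ to 3′ on the gene's own strand, with the match in capitals (it reads ACTTCCT here because it lies on the opposite strand).
Lyz2, chr10:117282273-117282472, minus strand: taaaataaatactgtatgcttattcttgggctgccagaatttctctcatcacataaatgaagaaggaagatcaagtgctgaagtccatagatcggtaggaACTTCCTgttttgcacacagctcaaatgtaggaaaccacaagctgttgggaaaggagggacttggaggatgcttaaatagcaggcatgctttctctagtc
Lyz1, chr10:117292869-117293068, minus strand: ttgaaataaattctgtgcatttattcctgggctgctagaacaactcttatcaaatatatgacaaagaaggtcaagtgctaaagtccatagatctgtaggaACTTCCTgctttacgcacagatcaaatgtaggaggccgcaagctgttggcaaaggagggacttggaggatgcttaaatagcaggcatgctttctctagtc
C1qb, chr4:136886201-136886400, minus strand: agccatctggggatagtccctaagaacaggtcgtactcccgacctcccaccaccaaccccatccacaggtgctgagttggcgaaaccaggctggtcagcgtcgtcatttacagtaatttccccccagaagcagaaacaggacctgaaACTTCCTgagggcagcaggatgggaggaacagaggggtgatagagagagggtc
C1qc, chr4:136892915-136893114, minus strand: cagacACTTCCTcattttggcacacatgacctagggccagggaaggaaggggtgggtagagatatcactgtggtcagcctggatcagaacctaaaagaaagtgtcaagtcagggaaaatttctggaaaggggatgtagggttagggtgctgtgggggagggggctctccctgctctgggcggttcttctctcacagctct

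The match began 100 bases before the start in Lyz2, at the same distance in Lyz1, 53 bases before it in C1qb and 195 in C1qc. In Mrc1 it began 211 bases before the start. The deposited spans of C1qc and Lyz2 end at 136893065 and 117282321, so most of the C1qc window and part of the Lyz2 window lie inside them. The distances and windows thus hold for the RefSeq starts only. The Lyz2 and Lyz1 windows were identical at 172 of 201 aligned columns (85.6%), against 43.4% for C1qb and C1qc, which lie next to each other but show no such likeness. The genes that share the match thus include 1 that rose and 2 that fell under the deposited scaling. A match is a description of the letters, and no binding was measured.

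Lyz2, the lysozyme of macrophages, monocytes and neutrophils, was the member that rose. The gene, ENSMUSG00000069516, spans 117277331 to 117282321 of chromosome 10, minus strand (GRCm38). It stood at 26.3, 20.9 and 21.8 scaled FPKM in flox/flox replicates 1 to 3, and 64.8, 48.0 and 53.8 in labelled knockout replicates 1 to 3. These values rest on 523, 397 and 425 reads against 1778, 1234 and 1468. Each labelled knockout library was above each flox/flox library. The means were 23.0 ± 2.89 and 55.5 ± 8.56 (SD, n = 3 each), a log2 difference of 1.25 ± 0.14 (SE, limma adjusted p = 0.00116). It passed in all 16 alternative fits, with differences of 1.14 to 1.65.

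Lyz1, the lysozyme of intestinal Paneth cells, is the adjacent paralog of Lyz2, from 117287797 to 117292868 on chromosome 10. It had 0.209, 0.219 and 0.267 scaled FPKM in flox/flox islets and 4.82, 3.56 and 3.86 in labelled knockout islets, a log2 difference of 2.64 ± 0.17 (SE, limma adjusted p = 0.000179). Both genes rose, and in both groups Lyz1 stayed far below Lyz2. It had 127, 88 and 101 reads in labelled knockout islets, where Lyz2 had at least 1234. Of the 50-base windows of the Lyz2 transcript, 15.4% occur in Lyz1, as do 1.97% of its 100-base windows and 0 of its 150-base windows. Reads lying inside a shared window cannot be assigned to 1 of the genes, and the read length is not given in the sources used here.

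Neutrophils also use Lyz2. None of 12 neutrophil markers passed the filter, and their summed level was low, without overlap between groups though the nearest libraries were level, at 1.56 to 3.13 scaled CPM in flox/flox islets and 3.13 to 8.68 in the others (log2 difference 1.43, exact two-sided permutation p = 0.1). Named after their values were seen, Ltf had 26 reads over the flox/flox group and 183 over the other, Cxcr2 had 0 and 32, and Ly6g and Stfa2l1 had 0 reads in every library. Within the labelled knockout group, Lyz2 was highest in replicate 1 and lowest in replicate 2. Summed Paneth and goblet cell markers had the opposite order, at 41.8, 177 and 104 scaled CPM against 19.0 to 52.8 in flox/flox islets, and so did summed B and plasma cell markers, at 549, 665 and 598. The part of other cell types in the Lyz2 result was not tested.

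The C1q chains are encoded side by side on chromosome 4, and the 3 together form each C1q molecule. C1qb (ENSMUSG00000036905, from 136880129 to 136886187, minus strand) had 31.8, 30.1 and 33.6 scaled FPKM in flox/flox islets and 18.0, 23.1 and 19.4 in labelled knockout islets. The groups did not overlap, with a log2 difference of -0.65 ± 0.10 (SE, limma adjusted p = 0.00455). C1qc (ENSMUSG00000036896, from 136889804 to 136893065, minus strand) was at 15.2, 12.3 and 14.4 against 10.2, 10.7 and 9.59, again without overlap, with a log2 difference of -0.44 ± 0.09 (SE, limma adjusted p = 0.0142). C1qa (ENSMUSG00000036887, from 136895917 to 136898803, minus strand) was at 82.6, 67.2 and 70.2 against 77.6, 56.4 and 61.4. Its groups overlapped and the difference of -0.18 ± 0.14 (SE) did not pass (limma adjusted p = 0.362).

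That 2 chains passed and 1 did not does not show that the chains differ. The C1qb to C1qa ratio was 0.386, 0.448 and 0.478 in flox/flox islets and 0.232, 0.410 and 0.315 in labelled knockout islets (exact two-sided permutation p = 0.2, adjusted over 3 ratios p = 0.3). The C1qc to C1qa ratio had an exact permutation p of 0.3 and the C1qb to C1qc ratio one of 0.2, each 0.3 after adjustment. With 3 libraries against 3 the lowest value possible is 0.10, so these ratios could not have passed. The C1qb call was kept in 15 of 16 alternative fits, lost only with own-total scaling (-0.25, adjusted p = 0.0883). The C1qc call was kept in 12 of 16. It was lost with own-total scaling (-0.05, adjusted p = 0.667), without flox/flox replicate 3 (adjusted p = 0.0527) and without labelled knockout replicate 3 (adjusted p = 0.0604). It was lost too with labelled knockout replicates 2 and 3 both left out, which leaves 1 library of that group (-0.43).

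Csf1r, the receptor for CSF1 and IL34 on which macrophage survival depends, fell by a smaller amount. The gene, ENSMUSG00000024621, lies on the plus strand of chromosome 18 from 61105572 to 61132149. It stood at 5.09, 5.87 and 4.95 scaled FPKM in flox/flox islets and 4.38, 4.20 and 3.49 in labelled knockout islets, and the groups did not overlap. The log2 difference of -0.36 ± 0.11 (SE) was just past the threshold (limma adjusted p = 0.0417). It passed in 6 of 15 alternative fits. The call was lost when any 1 flox/flox library was dropped (adjusted p = 0.0698 to 0.105) and without labelled knockout replicate 2 (0.0702) or 3 (0.126). Without both, which leaves 1 labelled knockout library, the call was lost at a difference of -0.25. It was lost too without the filter (0.0902), without the variance trend (0.0534) and with own totals (0.0054, adjusted p = 0.969). The last 871 bases of Csf1r overlap Hmgxb3 on the opposite strand, whose mean was 5.08 scaled FPKM, and strandedness is not given in the sources used here.

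Of the tested genes, 4 did not pass. Adgre1, which encodes the F4/80 antigen (ENSMUSG00000004730, chromosome 17, 57358686 to 57483529), had 3.40, 2.50 and 2.35 scaled FPKM in flox/flox islets and 1.40, 2.36 and 1.47 in labelled knockout islets. Only labelled knockout replicate 2 reached into the flox/flox range, and the difference of -0.54 ± 0.20 (SE) had a limma adjusted p of 0.0828. It passed with quantile normalization (-0.65, adjusted p = 0.0383) and without labelled knockout replicate 2 (-0.73, adjusted p = 0.0296). Cd68, a lysosomal membrane glycoprotein gene (ENSMUSG00000018774, chromosome 11, 69664213 to 69666153), was at 3.15, 3.58 and 4.29 against 3.55, 3.54 and 3.45 scaled FPKM. The 3 labelled knockout values lay inside the flox/flox range, with a log2 difference of -0.05 ± 0.11 (SE, limma adjusted p = 0.773).

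Itgax, the CD11c integrin chain of macrophages and dendritic cells (ENSMUSG00000030789, chromosome 7, 128129547 to 128150657), had 2.31, 2.00 and 1.78 scaled FPKM in flox/flox islets and 1.47, 2.61 and 1.76 in labelled knockout islets. The labelled knockout libraries spanned the whole flox/flox range, with a log2 difference of -0.07 ± 0.19 (SE, limma adjusted p = 0.801). Itgax and Adgre1 were both highest in labelled knockout replicate 2 and lowest in replicate 1. Summed enterocyte markers had that order too, at 435, 1893 and 1042 scaled CPM in labelled knockout replicates 1 to 3 against 189 to 216 in flox/flox islets. Summed dendritic cell markers (85.7, 159 and 117) and T and NK cell markers (63.4, 118 and 84.3) did as well. The part of these cell types in the 2 genes was not tested.

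The scavenger receptors were low in both groups. Mrc1, the mannose receptor gene (chromosome 2, 14229392 to 14332057), had 0.373, 0.293 and 0.317 scaled FPKM in flox/flox islets and 0.294, 0.209 and 0.507 in labelled knockout islets, from 26 to 67 reads per library. Cd163, the haemoglobin scavenger receptor gene (chromosome 6, 124304656 to 124330527), had 0, 12 and 1 reads against 6, 1 and 0. Neither passed the filter on low values, and in the fit without that filter neither passed the test (limma adjusted p = 0.9995 for Mrc1 and 0.680 for Cd163). At this depth a difference in Cd163 was not detectable.

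Because FPKM is per length, levels can be ordered between genes. In the flox/flox libraries the order of mean scaled FPKM was C1qa (73.3), C1qb (31.8), Lyz2 (23.0), C1qc (14.0), Csf1r (5.30), Cd68 (3.67), Adgre1 (2.75), Itgax (2.03), Mrc1 (0.328) and Cd163 (0.0548). Of neighbours in this order, Cd68 and Adgre1 overlapped in their ranges and the other 8 pairs did not. In the labelled knockout libraries Lyz2 (55.5) stood beside C1qa (65.1) with overlapping ranges, and it was above C1qb (20.2). Csf1r and Cd68 overlapped there, as did Itgax and Adgre1.

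The 3 falls depend on the scaling. When each library was scaled to its own total of reads, 52.4% of genes were called higher and 4.86% lower, the median of all genes moved to 0.36 (log2), and of the 8 macrophage genes 1 rose (Lyz2, 1.65) and 0 fell by limma, with 0 lower at an unadjusted p under 0.05 as well. Relative to that median the differences were 1.29 for Lyz2, -0.62 for C1qb, -0.41 for C1qc and -0.36 for Csf1r, close to those under the deposited scaling. By voom on recovered reads with the deposited scaling 1 rose and 3 fell. With quantile normalization, where 16.0% of genes were called higher and 18.3% lower, 1 rose and 4 fell (Csf1r, C1qb, C1qc and Adgre1). Leaving out labelled knockout replicates 2 and 3, which hold the most enterocyte RNA, leaves 1 library in that group. The differences were then -0.43 for C1qc and -0.25 for Csf1r. A call lost in that fit cannot be told from the effect of having fewer libraries. The groups did not overlap in 4 of the 8 tested genes, beside 50.5% of all genes tested.

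**Figure D2:**
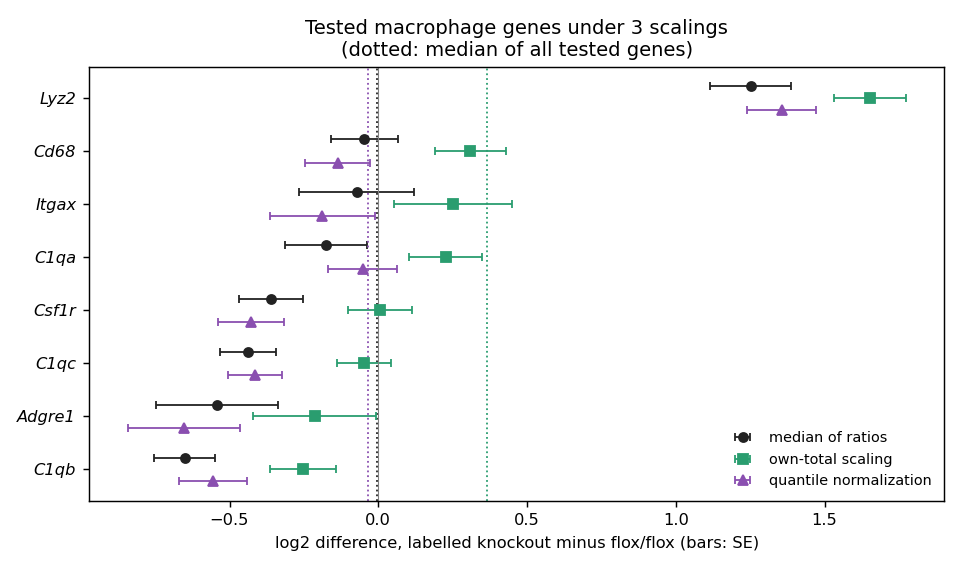
Log2 difference of the 8 tested macrophage genes (labelled knockout minus flox/flox, bars are standard errors) under median-of-ratios scaling (black), own-total scaling (green) and quantile normalization (purple), with the median of all tested genes as a dotted line of the same colour. Lyz2 lay above 1 under each scaling, and the own-total values sat to the right of the others for all 8 genes.

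A ratio of 2 genes within a library does not depend on the scaling. Each member except Cd163 and Csf1r itself was divided by Csf1r, giving 8 ratios. The Lyz2 to Csf1r ratio was 5.16, 3.56 and 4.39 in flox/flox islets and 14.8, 11.4 and 15.4 in labelled knockout islets, without overlap. Its log2 difference was 1.67 (p = 0.1 by an exact two-sided permutation test, which with 3 against 3 cannot give less, and 0.533 after Benjamini-Hochberg adjustment over the 8 ratios). It ranged from 1.53 to 1.80 when 1 library was left out.

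The other 7 ratios overlapped between groups. Their log2 differences ran from -0.28 for Adgre1 to 0.35 for Cd68, with -0.26 for C1qb, -0.06 for C1qc, 0.22 for C1qa, 0.30 for Itgax and 0.35 for Mrc1 (exact permutation p = 0.3 to 0.8). C1qb and C1qc did not separate from Csf1r in these libraries, and Lyz2 did separate from it in every library.

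**Figure D3:**
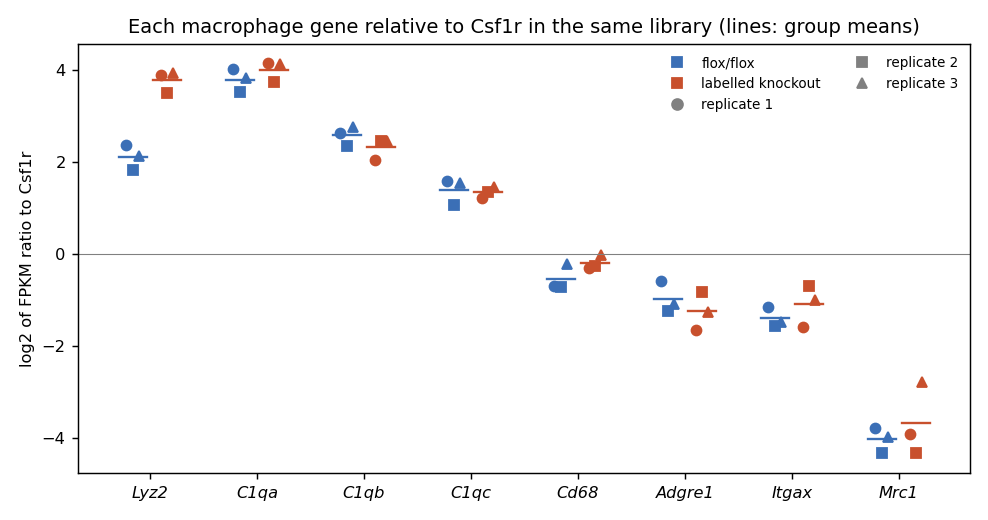
Log2 of the FPKM ratio of 8 macrophage genes to Csf1r in the same library, by group (blue flox/flox, orange labelled knockout), replicate (symbol) and group mean of the log2 ratios (line). The Lyz2 ratios of the 3 labelled knockout libraries lay above those of the flox/flox libraries, and the other 7 ratios overlapped.

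Summed over all 10 genes, reads came to 209 to 239 scaled CPM in flox/flox islets and 213 to 246 in labelled knockout islets, with overlap (log2 difference 0.03, exact two-sided permutation p = 0.6). Without Lyz2 the sum was 181 to 204 against 142 to 160, without overlap (-0.33 under the deposited scaling but 0.08 with own totals, exact permutation p = 0.1). Lyz2 is the 1 member that rose in these same data, so leaving it out moves the difference lower. The sum without it is a description and no separate support for the falls. The 10 genes together did not separate the groups under the deposited scaling, and with own totals they did, at 183 to 203 against 248 to 278 (log2 difference 0.43).

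A list of 32 other macrophage genes was examined in the same way. Of 18 tested, 2 rose, 5 fell and 11 did not pass, with a median of -0.38 (beside -0.0045 for all genes), and their summed level was 340 to 363 scaled CPM against 288 to 295 (-0.28, or 0.13 with own totals). Both genes that rose, Pf4 and Fcgr2b, had passed the filter through the labelled knockout group alone, as Lyve1 had through flox/flox alone, and among the 15 genes past it in both groups 0 rose and 4 fell. Fcer1g, the signalling chain of Fc receptors, fell (means 17.2 ± 2.58 and 8.55 ± 0.816 scaled FPKM, SD, n = 3 per group; limma adjusted p = 0.00203). Lyve1, a hyaluronan receptor shared with lymphatic vessels, fell by 1.17 ± 0.23 on the log2 scale (SE, limma adjusted p = 0.0104). Sirpa, an inhibitory receptor also found on β cells, fell by 0.51 ± 0.11 (limma adjusted p = 0.0124). Tyrobp, the adaptor of TREM2, was named after its values were seen and fell by 0.51 ± 0.08 (limma adjusted p = 0.00511). Under own-total scaling 4 of 18 genes of the list rose and 2 fell, beside 52.4% of all genes called higher and 4.86% lower. Leaving out labelled knockout replicates 2 and 3 leaves 1 library of that group. The differences were then -1.11 for Fcer1g, -1.17 for Lyve1, -0.31 for Sirpa and -0.54 for Tyrobp, and these calls were lost.

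Genes of the list that mark particular resident macrophages were low. Pf4, a chemokine of platelets and some macrophages, had 1, 2 and 2 reads in flox/flox islets and 22, 47 and 38 in labelled knockout islets (log2 difference 2.12 ± 0.30, SE, limma adjusted p = 0.00306). Fcgr2b, the inhibitory IgG receptor of B cells and macrophages, rose by 1.02 ± 0.20 (SE, limma adjusted p = 0.00975). Timd4 and Marco were named after their values were seen. Timd4, a receptor of long-lived resident macrophages, had 0 reads in each flox/flox library and 25, 8 and 22 in the others, at least 13.2-fold higher over a floor of 3 reads over the group. Marco, a scavenger receptor of some tissue macrophages, had 1, 2 and 0 reads against 42, 10 and 15. Neither of the last 2 passed the filter on low values. Not all such genes were higher in labelled knockout islets, since Lyve1 fell. F13a1 and Folr2 were also named after their values were seen, and both were below the filter. F13a1 averaged 0.385 against 0.222 scaled FPKM without overlap, and Folr2 0.230 against 0.268 with overlap.

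Genes that act with Csf1r were mixed. Of 20 ligands, partners and myeloid transcription factors, 17 were tested, 7 rose, 2 fell and 8 did not pass (median 0.36). Of the 14 past the filter in both groups, 4 rose and 2 fell. With own-total scaling 15 of 18 rose and 1 fell, beside 52.4% of all genes called higher and 4.86% lower. Csf1, a ligand of the receptor named after its values were seen, was at 3.71 ± 0.148 against 3.59 ± 0.256 scaled FPKM (SD, n = 3 each), a log2 difference of -0.04 (limma adjusted p = 0.723) that turned to 0.31 (adjusted p = 0.0139) with own totals. Il34, the other ligand, also named afterwards, differed by -0.43 (limma adjusted p = 0.0877).

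Irf8 and Csf2rb were past the filter only in the labelled knockout group. Irf8, a transcription factor of B cells, dendritic cells and monocytes, rose (means 0.922 ± 0.137 and 6.58 ± 0.222 scaled FPKM, SD, n = 3 per group; limma adjusted p = 5.98e-05). Csf2rb, the shared chain of the GM-CSF receptor, rose by 1.55 ± 0.29 on the log2 scale and Plcg2, a phospholipase of B cell and myeloid receptors, by 1.21 ± 0.13, while Csf2ra, the GM-CSF receptor's own chain, fell by 0.99 ± 0.10 (SE, limma adjusted p = 0.00862, 0.00104 and 0.000941). Fes, a myeloid kinase, fell by 0.35 ± 0.09 (limma adjusted p = 0.0302), a call kept in 7 of 15 alternatives. Spi1, which encodes PU.1 and was named after its values were seen, went from 1.68 ± 0.249 to 2.89 ± 0.507 scaled FPKM and rose by 0.63 ± 0.15 (limma adjusted p = 0.0208), a call kept in 9 of 15 alternatives.

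Complement genes went the other way from C1qb and C1qc. The list is broad and holds C1q partners, inhibitors, receptors and leukocyte integrin chains such as Itgb2. Of 12 tested among 21, 11 rose, 0 fell and 1 did not pass (median 1.09). None was lower at an unadjusted p under 0.05, and 10 rose by voom. With own totals 12 of 12 rose, beside 52.4% of all genes, and with quantile normalization 9. Leaving out labelled knockout replicates 2 and 3 leaves 1 library of that group, where C1ra differed by 0.45 and C1s1 by 0.19. Their summed level was 225 to 258 against 492 to 505 scaled CPM. Of the 10 genes past the filter in both groups, 9 rose. Cr2 and Cd55 are the 2 that passed it through the labelled knockout group alone. Cr2, a complement receptor of B cells, rose by 2.65 ± 0.26 (SE, limma adjusted p = 0.000880), Cd55, a complement inhibitor, by 2.19 ± 0.23 (0.00105), and C4b, which C1 cleaves, by 1.84 ± 0.20 (0.00111). Serping1, the C1 inhibitor, was named after its values were seen and rose (means 18.9 ± 1.22 and 56.8 ± 6.40 scaled FPKM, SD, n = 3 per group; limma adjusted p = 0.000185). C1ra and C1s1, the proteases that bind C1q, also named afterwards, rose by 0.62 ± 0.14 and 0.28 ± 0.08 (SE, limma adjusted p = 0.0177 and 0.0360), calls kept in 12 of 15 and 6 of 16 alternatives. The C1 proteases and the inhibitor thus rose under the deposited scaling, where 2 of the C1q chains fell. Fibroblasts also make C1ra, C1s1 and Serping1. Of 9 tested fibroblast and pericyte markers 5 rose, 2 fell and 2 did not pass (median 0.48), with Dcn and Col1a1, matrix genes of fibroblasts, higher by 1.36 ± 0.20 and 1.02 ± 0.23 and Rgs5, a pericyte gene, lower (-0.95 ± 0.07, SE, limma adjusted p = 0.00344, 0.0166 and 0.000264). Rgs5 held most of the list's reads, and the summed list was at 550 to 629 against 417 to 445 scaled CPM. The part of these and other cell types was not tested.

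Lysosome genes, among which Cd68 is placed by function, had 7 of 21 tested genes rise and 1 fall (median 0.26). With own totals 19 of 21 rose, beside 52.4% of all genes. Laptm5, a lysosomal protein of blood cells, rose (means 3.46 ± 0.568 and 12.7 ± 1.04 scaled FPKM, SD, n = 3 per group; limma adjusted p = 0.000274). Ctsh and Ctsb, cathepsin proteases, rose by 1.09 ± 0.10 and 0.81 ± 0.09 on the log2 scale (SE, limma adjusted p = 0.000789 and 0.00128). Lamp2, a lysosomal membrane protein, fell by 0.30 ± 0.09 (limma adjusted p = 0.0410), a call kept in 6 of 16 alternatives that turned to 0.09 with own totals. A list built around scavenger and endocytic receptors, the class of Mrc1 and Cd163, had 8 tested of 21. Of these 2 rose (Cd36 by 1.21, Slc40a1 by 0.53) and 1 fell (Axl by 0.61). Slc40a1 is an iron exporter and not such a receptor. With own totals 4 of 9 rose and 0 fell by limma, beside 52.4% of all genes called higher and 4.86% lower. Of the 9, 0 were lower at an unadjusted p under 0.05 with own totals. The Axl call was lost there (-0.23, limma adjusted p = 0.110). It was also lost, at -0.64, when labelled knockout replicates 2 and 3 were left out, which leaves 1 library of that group.

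Among leukocyte integrins, the family of Itgax, 6 of 8 were tested, 3 rose, 1 fell and 2 did not pass. Of the 3 past the filter in both groups 1 rose and 0 fell. With own totals 3 of 5 rose and 0 fell by limma, with 0 lower at an unadjusted p under 0.05. Of all genes, 52.4% were called higher and 4.86% lower under that scaling. Itgb7 and Itgal were tested only through the labelled knockout group and Itgad only through flox/flox. Itgb7, a gut-homing chain, rose by 2.65 ± 0.21, Itgal, the LFA-1 chain of lymphocytes, by 2.15 ± 0.17 and Itgb2, the partner of Itgax and Itgal, by 1.60 ± 0.19 (SE, limma adjusted p = 0.000417, 0.000397 and 0.00174). Itgad, an integrin chain of macrophages, fell by 1.69 ± 0.23 (limma adjusted p = 0.00274), and it overlaps Cox6a2 on the opposite strand, at a mean of 100.1 scaled FPKM. Itgb2 thus rose where Itgax did not pass.

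Classical and alternative activation genes had 7 of 20 tested, with 2 rises and 3 falls. Cxcl9 and Cd86, a chemokine and a costimulatory receptor, rose by 1.93 ± 0.42 and 0.98 ± 0.18 (SE, limma adjusted p = 0.0141 and 0.00793), both below the filter's level in flox/flox islets. Ccl3 fell from 8.62 ± 1.02 to 3.79 ± 0.756, Ccl4 from 8.57 ± 1.35 to 4.33 ± 0.718 and Il1b from 8.18 ± 0.993 to 4.68 ± 0.822 scaled FPKM (SD, n = 3 each, limma adjusted p = 0.00230, 0.00503 and 0.00788). These 3 calls were kept in 16, 15 and 14 of 16 alternatives. Other inflammatory genes of the list were below the filter and were named after their values were seen. Tnf (33 and 112 reads over the groups), Cxcl10 (27 and 211), Ccl2 (10 and 73) and Il12b (2 and 40) were higher in labelled knockout islets without overlap. Il1a and Il6 overlapped between groups. Inflammatory genes thus did not move in 1 direction.

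**Figure D4:**
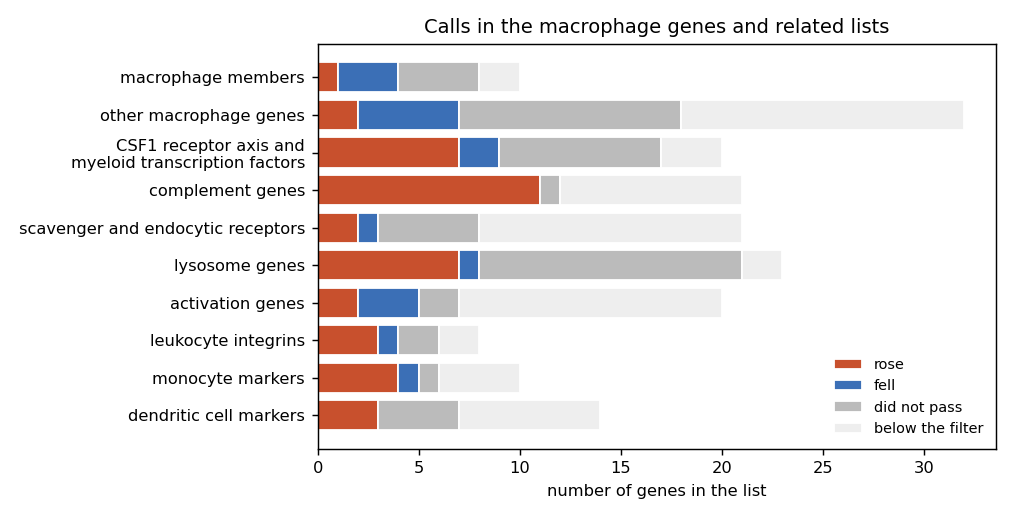
Number of genes in the macrophage set and 9 related lists (horizontal axis) that rose, fell, did not pass or were below the filter on low values. The macrophage set had 1 rise and 3 falls among 8 tested, the complement list 11 rises among 12 tested.

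Genes of other blood cells stood beside these results. All 9 tested T and NK cell markers and 11 of 13 tested B and plasma cell markers rose, with summed levels of 4.45 to 6.24 against 63.4 to 118 scaled CPM and 74.9 to 86.2 against 549 to 665. In the B and plasma cell list 1 did not pass and 1, Prdm1, fell by 0.82 ± 0.09 (SE, limma adjusted p = 0.00123). Jchain, of plasma cells, went from 0.670 ± 0.127 to 100.7 ± 41.6 scaled FPKM, and Trbc2, of T cells, from 0.519 ± 0.103 to 18.1 ± 8.30 (SD, n = 3 each). Dendritic cell markers had 3 rises among 7 tested, 1 of them among the 5 genes past the filter in both groups. Their summed level was 70.5 to 74.8 against 85.7 to 159. The other 4, named after their values were seen, did not pass and were mixed in direction. Zbtb46 and Clec9a differed by -0.41 and -0.16, and Fscn1 and Bst2 by 0.61 and 0.05. Ccr7, a homing receptor of dendritic cells and lymphocytes, rose by 3.73 ± 0.29 (SE, limma adjusted p = 0.000366), Ccl22 by 2.24 ± 0.63 (0.0354, kept in 6 of 13 alternatives) and Naaa by 0.72 ± 0.08 (0.00121), the first 2 tested only through the labelled knockout group. Monocyte markers had 4 rises and 1 fall among 6 tested, with 0 rises and 1 fall among the 2 past the filter in both groups, led by Plac8 (by 4.92), with Ace lower by 0.73, and Plac8 and Ace are also genes of gut epithelium and vessels.

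Mast cell markers gave none past the filter among 10, with Tpsb2 and Tpsab1, named after their values were seen, at 0 reads in every library. Enterocyte markers had 13 rises among 14 tested, and Fabp2, an enterocyte fatty acid binding protein, went from 0, 0.287 and 0 to 8.95, 145.9 and 66.0 scaled FPKM. Endothelial markers fell in 12 of 12 tested, and their sum was 2546 to 2764 against 1373 to 1619 scaled CPM. Under the deposited scaling, the summed macrophage genes other than Lyz2 were lower in the same libraries in which summed endothelial markers were lower. Summed lymphoid, dendritic cell and enterocyte markers were higher in those libraries. With own totals the sum without Lyz2 differed by 0.08 (log2). Most of the lymphoid genes passed the filter through the labelled knockout group alone, with 0 of 9 tested T and NK cell markers and 5 of 13 tested B and plasma cell markers past it in both groups. The part of these differences in the macrophage genes was not tested.

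**Figure D5:**
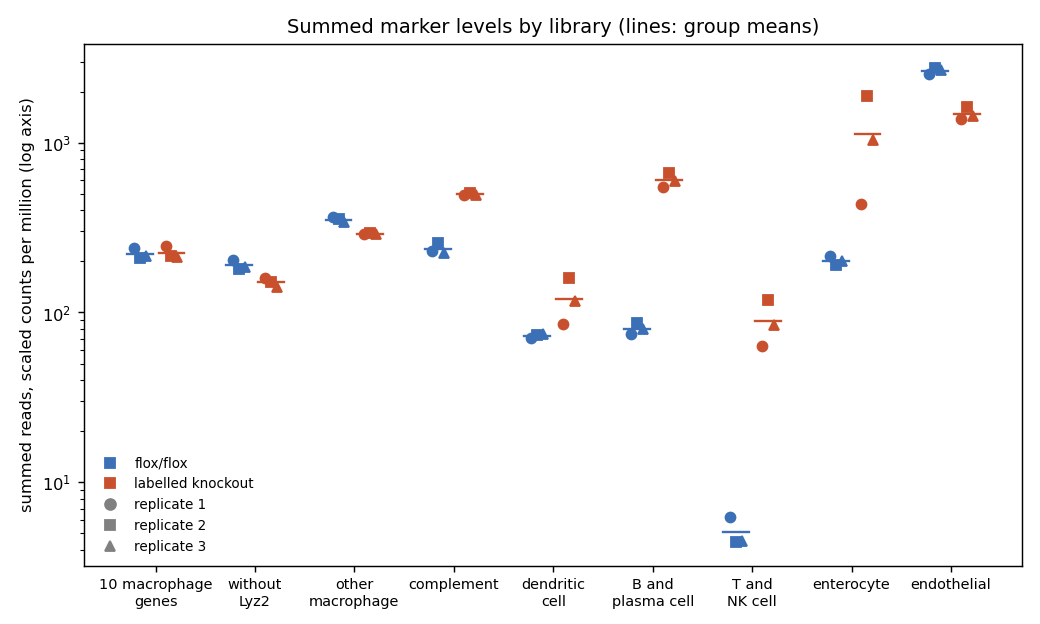
Summed reads of 9 marker lists in scaled CPM (log axis), by group (blue flox/flox, orange labelled knockout), replicate (symbol) and group mean (line). The 10 macrophage genes overlapped between groups, those without Lyz2 and the other macrophage genes were lower in labelled knockout islets under the deposited scaling but not with own totals, and B, T and enterocyte sums were higher.

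The genes whose pattern over the 6 libraries was most like that of Csf1r, by Pearson correlation of log2 values among 7061 genes, were mt-Th (0.993), Eral1 (0.990) and Fam174b (0.990). For Itgax they were Taf1a (0.973), Sfxn1 (0.969) and Cyc1 (0.960). With 6 libraries in 2 groups such values describe these libraries only, and the libraries share their scaling.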

How the data were processed

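Total RNA of 6 islet libraries was sequenced on an Illumina instrument, per the labels' protocols. The authors deposited FPKM of 54556 genes in 1 table that also holds coordinates and the length of each gene, per the file headers. The submitters' processing notes name HISAT2 2.0.5, featureCounts 1.5.0-p3, DESeq2 1.16.1 and GRCm38.p6; the step each served is not given in the sources used here. FPKM times length, divided by the smallest step of a library, gave whole numbers (100% within 0.1, largest distance 0.0538), taken as reads. Library totals were 16398862 to 18387313, and intervals from such reads cover counting error only. The deposited values already carried median-of-ratios scaling (factors of 1 over 19623 genes above 0 in all libraries), which leaves total RNA per cell unmeasured.

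For genes averaging at least 1, limma 3.58.1 (R 4.3.3, variance trend, two-sided) was run on log2(scaled FPKM + 0.5), which understates the change of low genes. Adjusted p under 0.05 over all genes was the threshold, and the script was tested on simulated data. Single ratios and sums had exact two-sided permutation tests. Groups and replicate numbers came from the sample titles. Within a group, libraries differed by 6.51 to 29.4 in chi-square per degree of freedom, so none was a copy. Alternatives were the pseudocount, filter, scaling, variance trend, voom on recovered reads, a replicate block and left-out libraries. Sequences were read with Biopython 1.88. The 10 members and the 20 gene lists (299 genes) were chosen with earlier results of these data known. Genes named are all members, up to 3 called genes of largest change in each direction per list, and 3 genes most like Csf1r and Itgax; others are said to be chosen afterwards. Some list genes that the rule would name are not reported here.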

Additional observations from a re-analysis of the deposited data

How the results depend on the processing

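The rise of Lyz2 passed in all 16 alternatives and C1qb passed in 15. The count for all genes called was 4935; it was 8352 under own-total scaling, 3090 with a filter at mean 5 and 1132 when labelled knockout replicates 2 and 3 were dropped together, and leaving out 1 library gave 2713 to 4213. Macrophage genes that fell numbered 3, and 0 with own totals, 1 without labelled knockout replicates 2 and 3, and 1 to 3 with 1 library left out. Other macrophage genes that rose numbered 2, and 0 with the filter at 5, 4 with own totals, 0 without replicates 2 and 3, and 1 to 3 with 1 left out; those that fell numbered 5, and 3, 2, 0 and 3 to 5. With own totals the summed log2 differences moved to 0.43 for the 10 genes, 1.13 for dendritic, 3.32 for B and plasma, 4.54 for T and NK and -0.44 for endothelial markers, and they changed sign to 0.13 for other macrophage genes and 0.0757 for the members other than Lyz2. Differences that changed sign without a call in the first fit were Cd68 (0.31 with own totals, 0.0558 without flox/flox replicate 3, range -0.1388 to 0.0558 with 1 library left out), C1qa (0.23 with own totals, 0.0865 without labelled knockout replicates 2 and 3), Itgax (0.25 with own totals, 0.0058 without flox/flox replicate 1, 0.0704 without labelled knockout replicate 1, range -0.2594 to 0.0704 with 1 library left out) and Csf1 (0.31 with own totals, 0.0521 without labelled knockout replicates 2 and 3). The called falls of Csf1r and Lamp2 turned to 0.0054 and 0.0946 with own totals. The deposited scaling holds the typical gene unchanged (median of all genes -0.0045), and own totals do not (0.3641). The insulin genes Ins1 and Ins2 had 3212856 and 11495944 reads over the flox/flox group. Over the labelled knockout group they had 1316920 and 6433995. The part of these insulin reads in the move of the median was not tested, nor was the cause of the other changes. Replicate numbers did not pair the libraries, since deviations of same-numbered libraries correlated at 0.0423 to 0.0811, although all 6 correlated best with their own number, a hint from the data and not the design. With the replicate block 4659 genes were called, with 1 macrophage gene up and 3 down, and 2 other macrophage genes up and 4 down. Depth limited Mrc1 and Cd163, which had at most 67 and 12 reads per library.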
